A study of Mus musculus with 22 samples.

Results

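Cry1, Cry2, Ciart, Bhlhe40 and Bhlhe41 are 5 genes for transcriptional repressors of the circadian clock, and their RNA was followed over the day in kidneys of wild-type (WT) and Clock knockout (KO) mice. Each gene was represented by its probe set with a single gene symbol in the platform annotation, and by the brightest one by mean over all arrays where there were several. Only Ciart had several, and both of its probe sets are described. The 5 genes were 5 of 13967 genes tested, and all 6 of their probe sets lay above the filter on dim probe sets.

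The series holds 22 Affymetrix whole-transcript arrays of mouse kidney, 11 of WT and 11 of KO, at zeitgeber times (ZT) 0, 4, 8, 12, 16 and 20, where ZT0 is lights on and ZT12 lights off in the earlier light cycle. The KO group carried clock(-/-), a loss of Clock in the whole animal in the line of Debruyne and coworkers, in a colony bred from clock(+/-) pairs. All animals of both groups lived for 2 weeks under 12 h of light and 12 h of dark and then for 30 h in constant darkness before the kidneys were taken. Each array held RNA combined from 2 or 3 mice, named here a pool, with pools 1 and 2 at each time except 1 pool for WT at ZT8 and 1 for KO at ZT16. Every array is a pool of its own, so a pool number shared by several times is a label and not 1 group of mice followed over time. Values given within pool 1 or pool 2 come from the arrays with that number. The labels give both whole kidney and left kidney for the samples, and the sources used here state no strain, age or sex. No label says whether pools came from separate litters or days, so the p-values rest on a spread between pools that may be partly technical. The kidney is a mixture of cell types, and fewer cells that express a gene cannot be told apart from less of its RNA per cell.

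The clock of mammalian cells is a loop in which CLOCK and ARNTL (BMAL1) bind E-box DNA and switch on genes whose products act back on them. CRY1 and CRY2 bind the CLOCK-ARNTL complex together with PER proteins and silence it. CIART, also named CHRONO, binds ARNTL and represses the same complex, and BHLHE40 (DEC1) and BHLHE41 (DEC2) are basic helix-loop-helix repressors that occupy E-boxes themselves. Cry1 is in addition held down by the nuclear receptors NR1D1 and NR1D2, and its RNA is known to peak later than that of most E-box genes. Kidney tubules carry this oscillator, and many transport genes of the nephron follow the time of day.

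The E-box letters in front of these genes are the DNA element that CLOCK and ARNTL use, so the 220 bases from position -250 to -31, counted from the base just before the start as -1, are shown for the 4 of the 5 genes whose promoters were matched by symbol in RefSeq (GRCm38.p6), that is, not Bhlhe40. All 4 genes lie on the minus strand, and each window lies upstream of the gene's RefSeq start. The windows are chr10:85185085-85185304 for Cry1, chr2:92434100-92434319 for Cry2, chr3:95882259-95882478 for Ciart and chr6:145865451-145865670 for Bhlhe41. Capitals mark CACGTG, the E-box, and AACGTG, which is CACGTT on the other strand and is called a variant E-box here.
Cry1: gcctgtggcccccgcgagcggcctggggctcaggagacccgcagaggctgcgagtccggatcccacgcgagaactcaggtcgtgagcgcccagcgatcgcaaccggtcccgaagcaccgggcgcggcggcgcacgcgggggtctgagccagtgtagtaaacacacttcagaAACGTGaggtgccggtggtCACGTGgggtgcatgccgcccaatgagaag
Cry2: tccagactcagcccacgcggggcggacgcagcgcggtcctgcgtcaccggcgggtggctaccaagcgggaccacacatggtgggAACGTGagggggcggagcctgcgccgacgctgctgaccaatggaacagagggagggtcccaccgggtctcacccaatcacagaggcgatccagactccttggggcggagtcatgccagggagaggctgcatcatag
Ciart: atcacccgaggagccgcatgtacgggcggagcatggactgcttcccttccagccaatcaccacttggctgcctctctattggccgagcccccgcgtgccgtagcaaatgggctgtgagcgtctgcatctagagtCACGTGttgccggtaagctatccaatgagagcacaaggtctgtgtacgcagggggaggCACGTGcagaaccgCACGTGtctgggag
Bhlhe41: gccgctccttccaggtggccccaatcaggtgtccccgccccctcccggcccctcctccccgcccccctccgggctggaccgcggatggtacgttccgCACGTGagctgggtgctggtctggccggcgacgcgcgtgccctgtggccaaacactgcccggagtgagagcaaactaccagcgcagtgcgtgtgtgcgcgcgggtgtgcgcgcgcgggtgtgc

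Ciart held 3 E-boxes, which began at -116, -58 and -44. Cry1 held 1 E-box that began at -60 and 1 variant that began at -79. Bhlhe41 held 1 E-box that began at -153, and Cry2 held no E-box but 1 variant that began at -166. Of 32851 promoter windows of the same length, 5.01% held at least 1 E-box, 3.4% held the variant and 0.0426%, or 14 windows, held 3 or more E-boxes as the Ciart window did. The D-box letters TTATGTAA and TTACGTAA, found in 0.737% and 0.0944% of windows on either strand, and the ROR site AGGTCA, found in 12.5%, were in none of the 4 windows. The E-box is its own reverse complement, and CACGTG and AACGTG do not overlap in these windows. A match is a description of the letters and does not show binding.

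**Figure D1:**
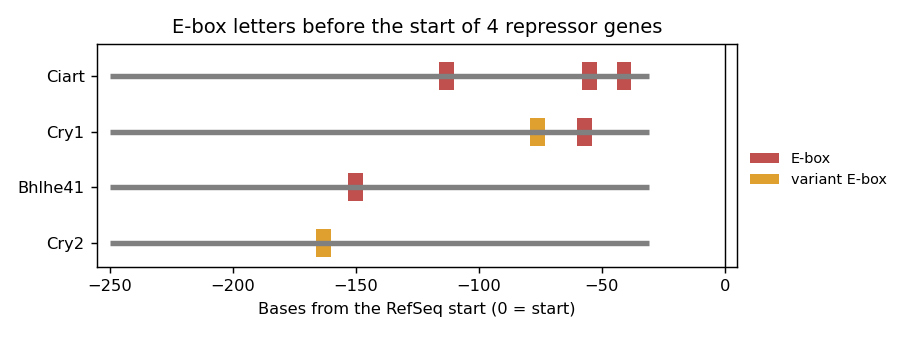
Positions of E-box letters (red) and variant E-box letters (orange) in the bases from -250 to -31 before the RefSeq start of 4 repressor genes, in bases from the start on the horizontal axis. Ciart has 3 E-boxes, Cry1 and Bhlhe41 have 1 each, and Cry2 has only a variant.

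The values are the authors' log2 expression from RMA, a method that corrects background, gives all arrays 1 common distribution and joins the probes of a set into 1 value, so differences of dim probe sets are understated. Differences between genotypes are KO minus WT in log2 units, where 1 is a factor of 2. The mean over the cycle, the amplitude (the distance from the mean to the fitted peak) and the peak time come from a 24 h wave fitted for each genotype with limma, errors after ± are standard errors of that fit unless SD is written, and adjusted p are Benjamini-Hochberg values over all genes with a threshold of 0.05. Levels are compared for 1 probe set at a time, because probe sets differ in brightness for technical reasons. Bhlhe41 and both Ciart sets were the dimmest of the probe sets described, so differences between their low readings may be understated. Whether this plays a part in their low KO values was not tested.

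Array medians lay between 5.88 and 6.01, and correlations between arrays over all probe sets between 0.980 and 0.994. The Clock probe set read higher in KO, by 0.13 ± 0.04 with an adjusted p of 0.0398, and 12 of the 22 fits without 1 array did not call it. Which part of Clock was deleted is not stated in the labels, so this value is no check of the genotype. Of 19 markers of nephron segments and podocytes, 18 were above the filter, with 7 higher in KO and 2 lower. The shares called over all genes were 5.23% higher and 3.9% lower. Of 20 markers of adrenal, fat, immune and muscle tissue, 10 were above the filter, none of them an adrenal marker, and 0 were called for the mean difference. The summed level of the 5 fat markers, on the linear scale, ran from 218 to 342 in WT and from 194 to 343 in KO apart from pool 1 at KO ZT8, which read 643. Without this array the ZT8 differences were 1.18 for Cry1, -1.36 for the brighter Ciart set, -2.08 for the second and -0.25 for Bhlhe41. With all arrays they were 1.44, -2.22, -2.35 and -0.78. The fit without it leaves KO pool 2 alone for KO at ZT8. Whether its fat signal plays a part in these values was not tested. KO pool 2 at ZT8 and ZT12 and WT pool 2 at ZT4 stood nearer to the other genotype than their partner pools in most of 9 clock genes and in some of the repressors, with counts below, and the calls that touch them are given with and without these 3 arrays. Both KO pools at ZT20 had stood apart from the other KO arrays in an earlier analysis of these data; leaving them out changed no call of level or rhythm of the 6 probe sets, and the single-time tests were not run without both.

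Cry1 was the 1 gene of the 5 called higher in KO at the adjusted threshold. Its mean over the cycle was 1.61-fold higher in KO, a difference of 0.69 ± 0.08 log2 with a 95% interval of 0.53 to 0.85 (adjusted p = 9.72e-06). Over all genes, 5.23% were called higher in KO and 3.9% lower. The excess was largest at ZT4 and ZT8, where WT Cry1 RNA was lowest.

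In WT, Cry1 read 6.90 and 6.92 (ZT0), 5.45 and 6.09 (ZT4), 5.92 (ZT8), 7.06 and 6.99 (ZT12), 7.51 and 7.65 (ZT16) and 7.47 and 7.51 (ZT20), with pool 1 before pool 2. In KO, it read 7.27 and 7.27 (ZT0), 7.02 and 7.29 (ZT4), 7.62 and 7.09 (ZT8), 7.68 and 7.50 (ZT12), 7.89 (ZT16) and 7.61 and 7.67 (ZT20). Every KO array lay above every WT array of the same time at all 6 times, and the lowest KO array of the whole cycle was above the WT arrays of ZT0, ZT4 and ZT8. With 1 or 2 arrays per genotype at a time, arrays can part without overlap by their spread alone. The share of all genes that do so was not counted, here or for the genes below. The WT group mean spanned 3.51-fold between ZT4 and ZT16, and the KO group mean 1.66-fold between the same times.

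At ZT4, Cry1 differed by 1.39 ± 0.18 log2, or 2.62-fold (adjusted p = 0.0186), and at ZT8 by 1.44 ± 0.22, or 2.71-fold (adjusted p = 0.0429). These were the only calls of the 5 genes at a single time. At each single time few genes were called in either direction, with shares of all genes of 0.0286% (ZT0), 0.00716% (ZT4), 0.0286% (ZT8), 0.122% (ZT12), 0.0143% (ZT16) and 1.75% (ZT20). The single gene behind the share at ZT4 was Cry1 itself. At the other times the difference was 0.36 ± 0.18 at ZT0, 0.57 ± 0.18 at ZT12, 0.31 ± 0.22 at ZT16 and 0.15 ± 0.18 at ZT20, with adjusted p of 0.371 or more. The ZT4 call was lost with the pool number as a replicate block (adjusted p = 0.0532), without KO pool 1 at ZT4 (adjusted p = 0.0945) and without KO pool 2 at ZT4 (adjusted p = 0.525). The ZT8 call stood close to its threshold, and it was lost in 17 of the 21 fits without 1 array, including those without either KO pool at ZT20 (adjusted p = 0.0848). The largest move among them came without KO pool 1 at ZT8, which gave 1.18 log2 (adjusted p = 0.334).

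Cry1 had a rhythm in WT with an amplitude of 0.97 ± 0.08 log2 and a peak at ZT17.7 ± 0.30 h (adjusted p = 7.68e-07). In KO its amplitude was 0.33 ± 0.08 with a peak at ZT15.9 ± 0.86 h, and the rhythm did not pass the test (adjusted p = 0.0760). The KO amplitude was lower by a difference of -0.64 (95% interval -0.88 to -0.40) and the peak differed by -1.77 h (95% interval -3.66 to 0.13). The test of the difference of both waves, whose length was 0.69 ± 0.11 log2, missed its threshold (adjusted p = 0.0511, unadjusted p = 2.56e-05). Over all genes, 6.48% were called rhythmic in WT, 2.46% in KO and 0.043%, or 6 genes, for the difference of rhythms. For Cry1 that last test passed in 5 of the 22 fits without 1 array, namely those without WT pool 1 or pool 2 at ZT4, WT pool 1 at ZT12, KO pool 2 at ZT8 or KO pool 2 at ZT12, with adjusted p from 0.0302 to 0.0449. The Cry1 rhythm in KO passed without WT pool 1 at ZT4 (adjusted p = 0.0206) or KO pool 1 at ZT8 (adjusted p = 0.0417). Within pool 1 the mean difference was 0.80 (adjusted p = 0.00252), and within pool 2 it was 0.52 (adjusted p = 0.0932).

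**Figure D2:**
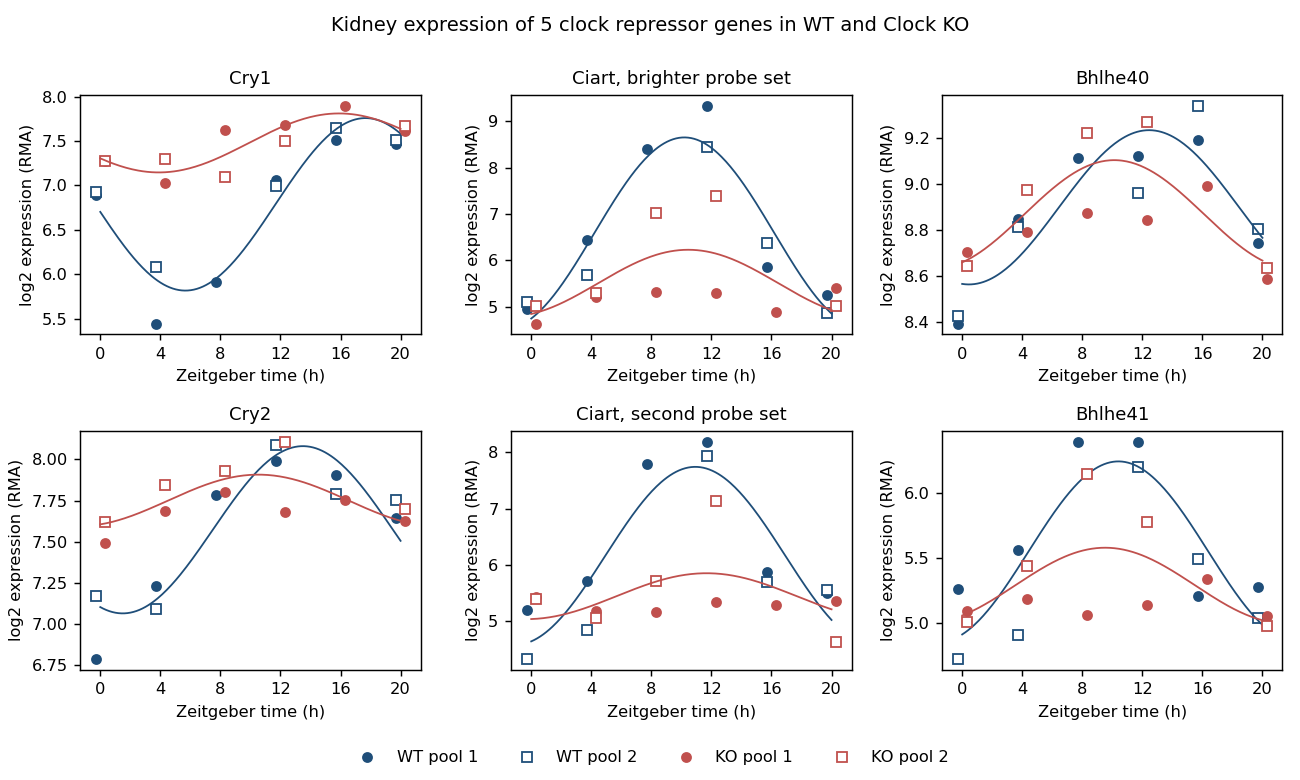
log2 expression of each probe set (vertical axis) against zeitgeber time in hours (horizontal axis) in WT (blue) and KO (red), with filled circles for pool 1, open squares for pool 2 and lines for the fitted 24 h waves. The vertical axes differ between panels; the KO arrays of Cry1 lie above WT at every time, and KO pool 2 of the brighter Ciart set reads 7.03 at ZT8 and 7.38 at ZT12, where KO pool 1 reads 5.32 and 5.29.

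Cry2, the paralog of Cry1, showed a smaller excess in KO that did not pass the test over the cycle, 0.18 ± 0.06 log2 (adjusted p = 0.0806; 95% interval 0.05 to 0.31). Its WT rhythm was called, with an amplitude of 0.51 ± 0.06 and a peak at ZT13.5 ± 0.50 h (adjusted p = 8.34e-05). Its KO amplitude was 0.16 ± 0.06 (adjusted p = 0.368). In WT, Cry2 read 6.79 and 7.17 (ZT0), 7.23 and 7.09 (ZT4), 7.78 (ZT8), 7.99 and 8.09 (ZT12), 7.90 and 7.79 (ZT16) and 7.65 and 7.75 (ZT20). In KO, it read 7.50 and 7.62 (ZT0), 7.68 and 7.84 (ZT4), 7.80 and 7.93 (ZT8), 7.68 and 8.11 (ZT12), 7.75 (ZT16) and 7.63 and 7.70 (ZT20). The WT arrays were low at ZT0 and ZT4, where both KO pools lay above both WT pools, and at ZT12 and ZT20 the genotypes overlapped.

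The Cry2 difference was 0.58 ± 0.14 log2 at ZT0 (adjusted p = 0.294) and 0.60 ± 0.14 at ZT4 (adjusted p = 0.809), and between -0.15 and 0.08 at the other times. The group mean spanned 2.09-fold in WT, from ZT0 to ZT12, and 1.26-fold in KO between the same times. The KO amplitude differed by -0.35 (95% interval -0.53 to -0.17), and the difference of rhythms had a length of 0.41 ± 0.09 (adjusted p = 0.224). The mean difference passed when array medians were subtracted, at 0.21 (adjusted p = 0.0295). It also passed without WT pool 2 at ZT20 (0.20, adjusted p = 0.0405) or KO pool 1 at ZT12 (0.21, adjusted p = 0.0417).

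Ciart had the largest WT amplitude of the 5 genes and was the 1 gene of them called lower in KO at the adjusted threshold. That call rests on its brighter probe set, whose place in the genome is in doubt as described below, and the second set did not pass (-0.72, adjusted p = 0.0717). Its brighter probe set had a WT amplitude of 2.07 ± 0.26 log2 with a peak at ZT10.2 ± 0.46 h (adjusted p = 0.00013). Averaged over the cycle it was lower in KO by a difference of -1.08 ± 0.25 (adjusted p = 0.00898; 95% interval -1.61 to -0.55), which leaves 0.473 of the WT level. In KO its amplitude was 0.72 ± 0.24 (adjusted p = 0.256).

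In WT, the brighter Ciart set read 4.96 and 5.11 (ZT0), 6.44 and 5.69 (ZT4), 8.39 (ZT8), 9.33 and 8.45 (ZT12), 5.85 and 6.37 (ZT16) and 5.25 and 4.86 (ZT20). In KO, it read 4.63 and 5.01 (ZT0), 5.20 and 5.30 (ZT4), 5.32 and 7.03 (ZT8), 5.29 and 7.38 (ZT12), 4.88 (ZT16) and 5.40 and 5.02 (ZT20). WT was high at ZT8 and ZT12 alone, a 14.5-fold span of group means from ZT0 to ZT12, against 2.86-fold in KO. KO arrays lay below WT without overlap at ZT4, ZT8, ZT12 and ZT16, and the genotypes overlapped at ZT0 and ZT20, where WT was at its lowest.

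The difference of the brighter Ciart set was -2.22 ± 0.69 log2 at ZT8 (adjusted p = 0.730) and -2.55 ± 0.57 at ZT12 (adjusted p = 0.102), so no single time passed. The amplitude differed by -1.35 (95% interval -2.08 to -0.61) and the peak by 0.26 h (95% interval -2.81 to 3.33). The difference of rhythms had a length of 1.35 ± 0.35 (adjusted p = 0.388, unadjusted p = 0.00395). The ZT12 difference passed without KO pool 2 at ZT12, at -3.60 (adjusted p = 0.0185). The mean difference was -1.58 within pool 1 (adjusted p = 0.00545) and -0.34 within pool 2 (adjusted p = 0.636).

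The second Ciart probe set was tested in a fit of every probe set above the filter. It had a WT amplitude of 1.58 ± 0.24 with a peak at ZT10.9 ± 0.59 h (adjusted p = 0.00141) and a KO amplitude of 0.41 ± 0.23 (adjusted p = 0.690). In WT, it read 5.20 and 4.33 (ZT0), 5.72 and 4.85 (ZT4), 7.80 (ZT8), 8.19 and 7.93 (ZT12), 5.87 and 5.69 (ZT16) and 5.51 and 5.56 (ZT20). In KO, it read 5.43 and 5.40 (ZT0), 5.19 and 5.07 (ZT4), 5.17 and 5.72 (ZT8), 5.34 and 7.14 (ZT12), 5.29 (ZT16) and 5.36 and 4.63 (ZT20). Its high WT arrays were again those of ZT8 and ZT12, and 1 KO array, pool 2 at ZT12, stood above the rest.

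The second set differed over the cycle by -0.72 ± 0.24, which did not pass (adjusted p = 0.0717), with -2.35 ± 0.55 at ZT8 (adjusted p = 0.479) and -1.82 ± 0.45 at ZT12 (adjusted p = 0.166). The sets differed in sign at ZT0, where the brighter set gave -0.21 and the second 0.65, and at ZT20, where they gave 0.15 and -0.54. The mean difference of the second set passed without WT pool 2 at ZT4 (-0.85, adjusted p = 0.0217), without WT pool 2 at ZT16 (-0.81, adjusted p = 0.0357) and without KO pool 2 at ZT12 (-0.90, adjusted p = 0.00903). Without that KO pool its ZT12 difference was -2.72 (adjusted p = 0.0163). Both sets had a correlation of 0.914 over the 22 arrays, which share the time course. Probe set numbers on this platform run along the chromosomes for the other members, whose 20 nearest named neighbours by number included 18 to 20 on the gene's own chromosome. All 20 neighbours of the second Ciart set lie on chromosome 3, where RefSeq places Ciart, but of the 20 neighbours of the brighter set 19 lie on chromosome 10 and 0 on chromosome 3. The files give no probe positions, and which sequence the brighter set reads was not tested.

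Bhlhe40 was rhythmic in WT, and its difference in level between the genotypes was within its error. Its WT amplitude was 0.34 ± 0.06 log2 with a peak at ZT12.4 ± 0.78 h (adjusted p = 0.00758), the smallest WT amplitude of the 5 genes. The mean difference was -0.03 ± 0.07 (adjusted p = 0.794), and its 95% interval of -0.17 to 0.11 bounds it. Its sign turned when array medians were subtracted, at 0.00045 log2.

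In WT, Bhlhe40 read 8.39 and 8.42 (ZT0), 8.85 and 8.81 (ZT4), 9.12 (ZT8), 9.12 and 8.96 (ZT12), 9.19 and 9.34 (ZT16) and 8.74 and 8.81 (ZT20). In KO, it read 8.71 and 8.64 (ZT0), 8.79 and 8.98 (ZT4), 8.87 and 9.22 (ZT8), 8.84 and 9.27 (ZT12), 8.99 (ZT16) and 8.59 and 8.64 (ZT20). KO arrays lay above WT at ZT0 and below WT at ZT16 and ZT20, and the genotypes overlapped at the other times. The differences were 0.26 ± 0.13 at ZT0, -0.27 ± 0.16 at ZT16, with 1 KO pool, and -0.16 ± 0.13 at ZT20. None of them passed, so a crossing of the genotypes is not shown. The KO amplitude was 0.24 ± 0.06 with a peak at ZT10.1 ± 1.12 h (adjusted p = 0.104). That is 0.704 of the WT amplitude, the largest share kept among the 5 genes, and the amplitude difference of -0.10 had a 95% interval of -0.29 to 0.09. The difference of rhythms had a length of 0.20 ± 0.09 (adjusted p = 0.719).

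Bhlhe41, the paralog of Bhlhe40, had a higher amplitude in WT and a time course like that of Ciart. Its WT amplitude was 0.69 ± 0.13 log2 with a peak at ZT10.4 ± 0.68 h (adjusted p = 0.00583), and its KO amplitude 0.29 ± 0.12 (adjusted p = 0.428). In WT, it read 5.27 and 4.73 (ZT0), 5.56 and 4.91 (ZT4), 6.39 (ZT8), 6.39 and 6.20 (ZT12), 5.21 and 5.49 (ZT16) and 5.28 and 5.04 (ZT20). In KO, it read 5.10 and 5.01 (ZT0), 5.19 and 5.44 (ZT4), 5.06 and 6.14 (ZT8), 5.14 and 5.78 (ZT12), 5.33 (ZT16) and 5.05 and 4.98 (ZT20). KO lay below WT without overlap at ZT8 and ZT12, and the genotypes overlapped at the other 4 times.

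The Bhlhe41 difference was -0.78 ± 0.37 log2 at ZT8 (adjusted p = 0.862) and -0.83 ± 0.30 at ZT12 (adjusted p = 0.473). Over the cycle it was -0.26 ± 0.13 (adjusted p = 0.206; 95% interval -0.52 to 0.0039). Within pool 1 it was -0.54 (adjusted p = 0.0222), and within pool 2 the sign turned, at 0.10 (adjusted p = 0.753). The amplitude differed by -0.40 (95% interval -0.77 to -0.04), and the difference of rhythms had a length of 0.42 ± 0.17 (adjusted p = 0.661).

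Side by side, 5 of the 5 genes were rhythmic in WT in the limma fit, against 6.48% of all genes. In KO 0 of the 5 were called, against 2.46% of all genes, so this count is close to the share over all genes. In KO 3 of the 5 had an unadjusted p under 0.05, and the share of all genes with such a p was not counted. The KO amplitude was the smaller one in 5 of 5 genes, as it was in 61.6% of all genes. The median amplitude of the 5 genes was 0.69 in WT and 0.29 in KO, beside 0.087 and 0.068 over all genes. The KO amplitude was 0.342 of the WT amplitude for Cry1, 0.309 for Cry2, 0.349 for the brighter and 0.258 for the second Ciart set, 0.704 for Bhlhe40 and 0.417 for Bhlhe41. The 95% interval of the amplitude difference lay below 0 for all but Bhlhe40. These intervals are not adjusted over genes. The test of the difference of rhythms passed for 0 of the 5 genes, against 0.043% of all genes. Of the 5 genes, 3 had an unadjusted p under 0.05 in that test, as had 1087 of all 13967 genes.

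In level, 1 of the 5 genes was called higher in KO and 1 lower, the latter by the brighter Ciart set and not by the second, and their median difference was -0.03, beside 0.004 over all genes. Over all genes, 57.3% of the calls were higher in KO, a share that became 76.4% when array medians were subtracted. The calls of Cry1 and Ciart were kept under that setting.

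In the order of WT peaks, Ciart by its brighter set came first at ZT10.2, then Bhlhe41 at ZT10.4 and Bhlhe40 at ZT12.4. Cry2 followed at ZT13.5 and Cry1 at ZT17.7. The second Ciart set peaked at ZT10.9 ± 0.59 h, so the order of Ciart and Bhlhe41 depends on the set. The 95% intervals of neighbours overlapped for Ciart (9.25 to 11.2) and Bhlhe41 (8.99 to 11.8), for Bhlhe41 and Bhlhe40 (10.8 to 14.1), and for Bhlhe40 and Cry2 (12.5 to 14.5). Cry1, at 17.0 to 18.3, peaked 4.17 h after Cry2 and overlapped with none of the others. Peak times of KO waves carry wide errors, from 0.86 h for Cry1 to 1.74 h for Bhlhe41 and 2.35 h for the second Ciart set. All 5 intervals of the shift between genotypes included 0, with shifts of -2.96 h for Cry2 (95% interval -6.46 to 0.54), -2.32 h for Bhlhe40 (-5.16 to 0.52) and -0.88 h for Bhlhe41 (-4.77 to 3.01).

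**Figure D3:**
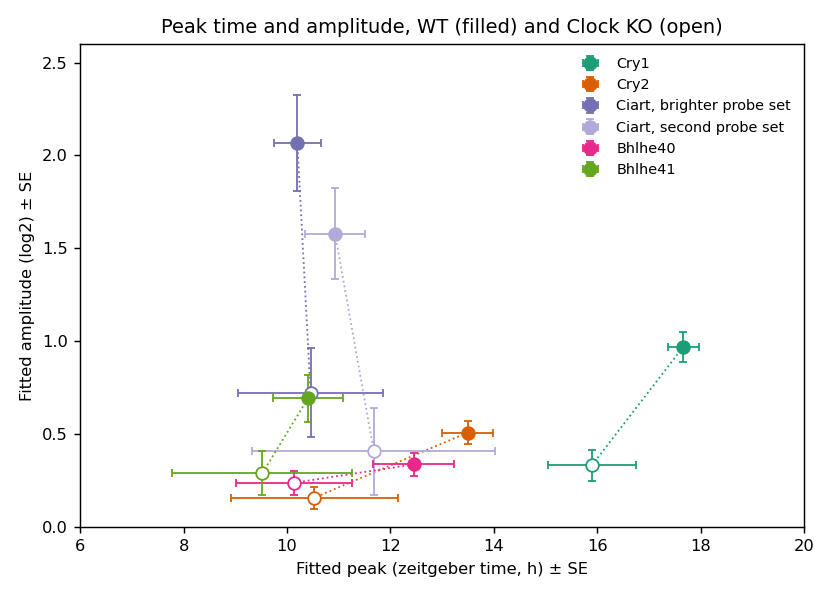
Fitted amplitude in log2 (vertical axis) against fitted peak in zeitgeber time (horizontal axis) for WT (filled) and KO (open), with dotted lines that join the genotypes of a probe set and bars for standard errors. Every open point lies below its filled partner, and Cry1 in WT stands alone at ZT17.7.

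**Figure D4:**
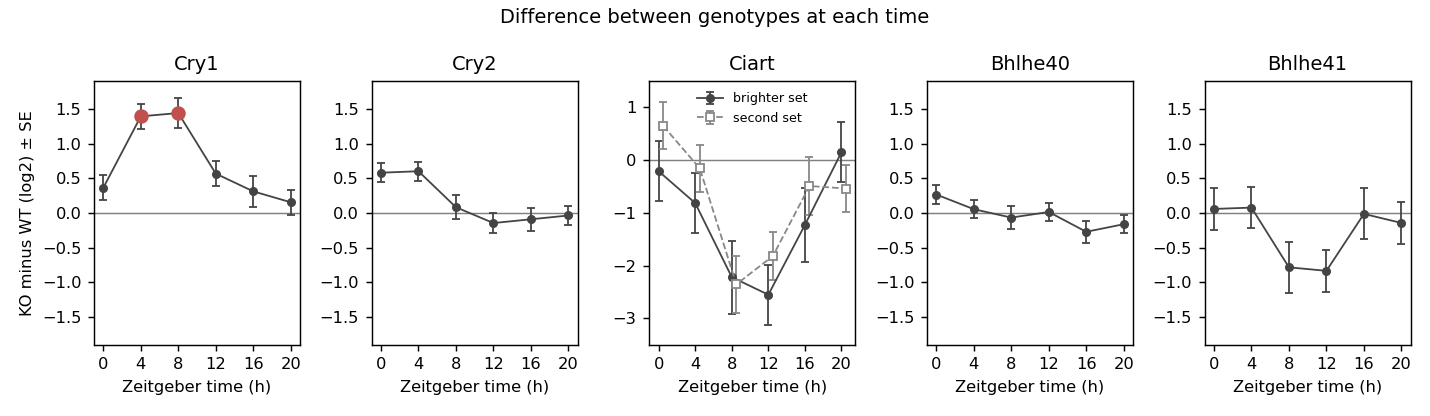
KO minus WT in log2 with standard errors (vertical axis) at each zeitgeber time in hours (horizontal axis), with large red points for an adjusted p under 0.05. The Ciart panel has a wider vertical axis than the others; Cry1 is above 0 at all 6 times, and both Ciart sets reach below -1.8 at ZT8 and ZT12.

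For the brighter Ciart set, Bhlhe40 and Bhlhe41, the KO pools differed most at ZT8 and ZT12. For the brighter Ciart set, the 6 KO arrays numbered pool 1 lay between 4.63 and 5.40, a range of 0.76 log2. The 5 KO arrays numbered pool 2 had a range of 2.37. For Bhlhe41 the ranges were 0.28 and 1.16. Pool 2 exceeded pool 1 of the KO by 2.09 log2 at ZT12 and 1.71 at ZT8 for Ciart, the widest 2 of its 10 gaps between pools in either genotype. The same arrays gave the widest 2 gaps for Bhlhe40, 0.43 at ZT12 and 0.35 at ZT8. They gave 1.08 at ZT8 and 0.63 at ZT12 for Bhlhe41, the widest and the third widest gap of that gene. The second Ciart set had its widest gap at KO ZT12, 1.80, but only 0.55 at KO ZT8, and Cry2 had its widest at KO ZT12, 0.43. In Cry1, KO pool 2 lay 0.53 below pool 1 at ZT8 and thus nearer to WT, and WT pool 2 lay 0.64 above WT pool 1 at ZT4 and thus nearer to KO.

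Other clock genes showed the same arrays apart. The 9 clock genes looked at were Dbp, Arntl, Nr1d1, Nr1d2, Per1, Per2, Per3, Tef and Nfil3, while Clock, Arntl2, Rora and Hlf were not counted. KO pool 2 was nearer to the WT mean than KO pool 1 in 7 of the 9 at ZT8, where WT is 1 array, and in 9 of 9 at ZT12. The share of all genes in which these arrays lie so was not counted. WT pool 2 at ZT4 was nearer to the KO mean than WT pool 1 in 6 of the 9 and in 3 of the 6 probe sets of the repressors, those of Cry1 and Ciart. Dbp, a D-box activator, differed from WT at ZT8 by -2.78 in pool 1 and -1.13 in pool 2, and at ZT12 by -3.04 and -1.16. Why the pools differ was not tested. The fat marker sum read 194 in KO pool 1 and 201 in KO pool 2 at ZT12, and 643 and 343 at ZT8. Whether it plays a part in the gaps was not tested.

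The KO amplitude of Ciart was 0.17 log2 within pool 1 and 1.35 within pool 2 for the brighter set, and 0.10 and 0.94 for the second. It was 0.06 and 0.56 for Bhlhe41, 0.13 and 0.35 for Bhlhe40, 0.11 and 0.22 for Cry2, and 0.38 and 0.28 for Cry1. In the fit without KO pool 2 at ZT8, KO pool 2 at ZT12 and WT pool 2 at ZT4, the KO amplitude was 0.16 for Ciart, 0.08 for Bhlhe41, 0.15 for Bhlhe40, 0.09 for Cry2 and 0.35 for Cry1. These arrays were chosen after their values were seen, for lying toward the other genotype. Wider differences of Cry1, both Ciart sets and Bhlhe41 without them therefore follow from the choice. The adjusted p of that fit, given below, are a description and no separate support. The Cry2 mean difference became smaller, 0.12 in place of 0.18.

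In that fit the difference of rhythms passed for Cry1 with a length of 0.79 (adjusted p = 0.0134), for the brighter Ciart set with 1.94 (adjusted p = 0.0015) and for the second with 1.56 (adjusted p = 0.0489). The mean difference became -1.55 for Ciart (adjusted p = 8.14e-06), -1.08 for its second set (adjusted p = 0.00135), -0.47 for Bhlhe41 (adjusted p = 0.00251) and 0.78 for Cry1 (adjusted p = 6.82e-06). Cry2 at 0.12 and Bhlhe40 at -0.07 did not pass there either. At single times, the brighter Ciart set then passed at ZT8 with -3.07 (adjusted p = 0.00981) and at ZT12 with -3.60 (adjusted p = 0.000389). The second set did so with -2.63 (adjusted p = 0.0217) and -2.72 (adjusted p = 0.00337). The Cry1 differences that had passed with all arrays became 1.71 at ZT4 (adjusted p = 0.000141) and 1.70 at ZT8 (adjusted p = 0.000201). Bhlhe41 passed at ZT12 with -1.15 and Cry1 at ZT12 with 0.66, both at an adjusted p of 0.0366.

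The other genes of the loop give the setting of these repressors. Over the cycle, 5.23% of all genes were called higher in KO and 3.9% lower. Of 5 other repressors of the loop, 0 were higher and 3 were lower. These were the nuclear receptors Nr1d2 (-0.67 ± 0.10) and Nr1d1 (-0.55 ± 0.12), which repress Arntl and Cry1, and the period gene Per3 (-0.52 ± 0.09), while Per1 (-0.08 ± 0.09) and Per2 (-0.11 ± 0.07) did not pass. All 5 were rhythmic in WT and 4, all but Per1, in KO, beside 6.48% and 2.46% of all genes. Of the 5 Cry, Ciart and Dec genes, 0 were called in KO, a count close to the share over all genes. Among them 3 had an unadjusted p under 0.05, and whether the groups of genes differ in KO rhythm was not tested. The difference of rhythms passed for 1 of the 5 other repressors, Nr1d1 (adjusted p = 0.0316), and 16 of the 22 fits without 1 array did not call it. Without both KO pools at ZT20 the KO rhythm of Per2 alone kept its call (adjusted p = 0.00757), and the others had adjusted p from 0.111 to 0.128.

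Of 7 activators of the loop, 4 were above the filter, and Arntl (1.01 ± 0.10, adjusted p = 2.38e-06) and Clock were higher in KO. The nuclear receptor Rora was lower (-0.18 ± 0.05), which neither 4 of the 22 fits without 1 array nor the fit without both KO pools at ZT20 (adjusted p = 0.122) called, and Arntl2 (-0.07 ± 0.06) did not pass. Arntl was rhythmic in both genotypes, and its rhythms differed (adjusted p = 0.00124). Of 4 factors that act at D-boxes, the repressor Nfil3 was higher (0.55 ± 0.09), the activators Dbp (-0.86 ± 0.22) and Tef (-0.41 ± 0.08) were lower, and Hlf (-0.14 ± 0.06) did not pass. All 4 were rhythmic in WT, and Tef and Nfil3 in KO. Without both KO pools at ZT20 those KO rhythms did not pass, with adjusted p of 0.198 and 0.223, and that of Arntl had 0.111.

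Genes for partners of the CRY, DEC and CIART proteins and for the enzymes that modify or degrade them numbered 21, with 20 above the filter. Of these 20, 0 were higher and 1 was lower in KO, a count close to the shares of 5.23% and 3.9% over all genes. The lower one was Prkaa2, a catalytic subunit of the AMP-activated kinase, which marks CRY proteins for degradation (-0.11 ± 0.03, adjusted p = 0.0185), and it did not pass without both KO pools at ZT20 (adjusted p = 0.0844). Their median difference was 0.03 and their median amplitude 0.074 in WT and 0.037 in KO, beside 0.087 and 0.068 over all genes. In WT, 3 were rhythmic, namely Fbxl21, Btrc and Cipc, and Cipc was not called in 19 of the 22 fits without 1 array. Rhythms were called in 6.48% of all genes in WT and in 2.46% in KO. Fbxl21, a ubiquitin ligase subunit that binds CRY proteins, was the 1 gene of this list rhythmic in KO, with an amplitude of 0.40 ± 0.07 (adjusted p = 0.0126) beside 0.42 ± 0.08 in WT. Its KO call was lost in 2 of the 22 fits without 1 array, without both KO pools at ZT20 (adjusted p = 0.400) and without the 3 arrays named above (adjusted p = 0.0533).

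**Figure D5:**
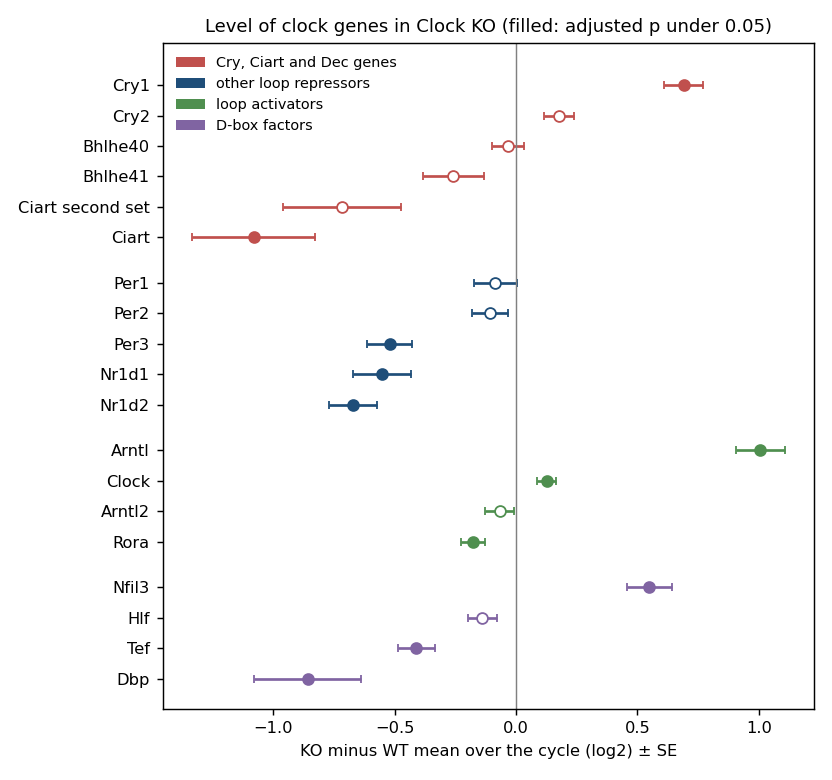
KO minus WT mean over the cycle in log2 with standard errors (horizontal axis) for the Cry, Ciart and Dec genes (red) and for other loop repressors (blue), loop activators (green) and D-box factors (purple), with filled points for an adjusted p under 0.05. Cry1 lies on the side of Arntl and Nfil3, and Ciart on the side of Dbp, Nr1d1, Nr1d2 and Per3.

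For each of the 5 genes, the 3 genes with the highest and the 3 with the lowest Pearson correlation over the 22 arrays were listed as a description of shared pattern. The arrays share both the time of day and the genotype, so the correlations hold both. Only the brighter Ciart set, whose place in the genome is in doubt, stands for Ciart here. It was nearest to Dbp (0.960), Bhlhe41 (0.913) and Cpeb3 (0.908), and farthest from Ndrg1 (-0.925), Slc16a1 (-0.919) and Arntl (-0.916). No such list was made for the second set, whose correlation with Bhlhe41 was 0.882. Bhlhe41 was nearest to Dbp (0.934), Ciart (0.913) and Mtss1 (0.898), and its lowest were Arntl (-0.867), Ndrg1 (-0.857) and Slc16a1 (-0.850), the same 3 genes as for Ciart. Cry1 had weaker partners on the upper side, Lonrf3 (0.813), Zbtb26 (0.770) and Tardbp (0.768), and on the lower side Kazn (-0.887), Nr1d1 (-0.864) and Plekhm2 (-0.856). Cry2 was nearest to Per2 (0.808), Slc25a13 (0.797) and Nox4 (0.786), with Twf1 (-0.724), Sh3pxd2b (-0.720) and Ethe1 (-0.70) lowest. Bhlhe40 was nearest to Herpud1 (0.842) and Dnajb9 (0.832), which act in the unfolded protein response, and to the carnitine transporter Slc22a5 (0.829), with Acmsd (-0.754), Clpx (-0.750) and Ethe1 (-0.750) lowest.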

How the data were processed

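Expression was measured on 22 arrays, 11 per genotype, each a pool of 2 or 3 mice from which 100 ng of RNA was labelled. The authors deposited log2 values, 1 per probe set, from RMA, which the submitters' processing notes name; version and build: not given in the sources used here. Of 35556 probe sets, 21789 have 1 gene symbol, and 21698 of these matched RefSeq by gene number. Dim sets, below the 30th percentile by mean, were left out and the brightest set stood for a gene, which left 13967 genes. No read depth applies, and the number of arrays limits the precision.

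Waves with a 24 h period per genotype (16 residual degrees of freedom) and means of the 12 groups (10 residual degrees of freedom) were fitted with limma 3.58.1 in R 4.3.3 and tested on simulated data. Deviations of same-numbered pools had correlations of -0.41 to 0.55 between times (45 pairs, median 0.12, 25 over 0.1). Pool numbers were not taken as pairs in the main fits, a choice that these values do not settle. Results with the pool number as a replicate block are given below. The genes, lists, named-gene rule (the 5 genes, called list members, and 3 genes at each end of likeness) and alternatives were chosen with earlier results of these data known. Genome coordinates come from RefSeq, GRCm38.p6.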

Additional observations from a re-analysis of the deposited data

How the results depend on the processing

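The alternatives were other filters, probe set choices, scalings, spreads and weights, leaving out arrays, and each pool number alone. Of 528 levels, amplitudes and rhythm differences of the 6 probe sets in fits without 1 array, 515 kept direction and call; an amplitude cannot move when the array is of the other genotype. At single times, the Cry1 call was lost in 17 of 21 such fits at ZT8 and in 2 of 22 at ZT4. Of 260 values under other settings 232 kept both. Leaving out 1 array gave 0.30 to 0.37 for the Cry1 amplitude in KO, 0.58 to 0.74 for its difference of rhythms, 0.14 to 0.21 for the Cry2 mean difference, -0.070 to 0.0022 for that of Bhlhe40 (above 0 without KO pool 1 at ZT12) and -0.90 to -0.63 for the second Ciart set. The number of genes called then ran from 602 to 954 for WT rhythm, 77 to 477 for KO rhythm and 1 to 11 for the difference of rhythms.

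Pool 2 alone gave mean differences of 0.52 (Cry1), -0.34 (Ciart), 0.071 (Bhlhe40) and 0.10 (Bhlhe41), the last pair turned in sign, and WT amplitudes that missed the threshold at 0.47 (Cry2), 1.84 (Ciart), 1.52 (second set), 0.31 (Bhlhe40) and 0.70 (Bhlhe41). Pool 1 alone gave WT amplitudes that missed it at 0.36 (Bhlhe40) and 0.65 (Bhlhe41), and mean differences that passed at -0.54 (Bhlhe41) and -1.08 (second set). Array weights brought past the threshold the KO amplitudes of Cry1 (0.33) and Bhlhe40 (0.25), the Cry1 difference of rhythms (0.69) and the second set's mean difference (-0.78), and turned the Bhlhe40 mean difference to 0.0054. A trended robust spread also brought the Cry1 difference of rhythms (0.69) past it. Subtracting array medians brought the Cry2 mean difference (0.21) past it and turned that of Bhlhe40 to 0.00045. One mean per group gave the second set a called mean difference of -0.78 and left the Bhlhe41 WT amplitude of 0.73 uncalled. Without the 3 arrays chosen after seeing the data, the difference of rhythms passed for Cry1 (0.79), Ciart (1.94) and the second set (1.56), and the mean difference for Bhlhe41 (-0.47) and the second set (-1.08).

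Of all genes, 1276 were called for the mean difference, 823 with one mean per group, 2351 with array weights, 639 without both KO pools at ZT20, 565 in pool 1 and 1 in pool 2. For WT rhythm it was 905, with 140 (group means), 95 (pool 1), 14 (pool 2) and 595 (without the 3 arrays). For KO rhythm it was 343, with 228 (no filter), 59 (group means), 697 (weights), 12 (without the KO ZT20 pools), 58 (without the 3 arrays) and 0 in either pool alone, where limma gave 1112 and 1317 genes at an unadjusted p under 0.05. For the difference of rhythms it was 6, with 1 (group means), 11 (weights), 3 (without the KO ZT20 pools), 3 (pool 1), 20 (without the 3 arrays) and 0 (pool 2, with 620 at an unadjusted p under 0.05). The causes were not tested. The pool fits also hold fewer arrays, and the part of that number was not tested either.

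With the pool number as a replicate block, the Cry1 calls at ZT4 (1.39) and ZT8 (1.42, adjusted p = 0.0584) were lost, and that at ZT8 also without the filter (adjusted p = 0.0593). The block changed no other call of the 6 probe sets, and gave mean differences of 0.69 for Cry1 and -1.08 for Ciart. RMA compresses dim sets, and 1 or 2 pools per time limit the tests at a single time.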
